A study of Mus musculus with 35 samples.

Results

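The 9 genes described here are Lmx1b and 8 genes whose products bind LIM domains, build on the complex formed there or turn it over. The rule that picks them lists gene names and uses no measured value, though it was written with earlier results of these data known. The set consists of Lmx1b, Ldb1, Ldb2, Ssbp2, Ssbp3, Ssbp4, Rlim, Lmo4 and Tcf3, which are 9 of the 33292 genes in the table. Their transcripts were measured by RNA sequencing in podocytes, the epithelial cells that cover the capillaries of the kidney filter, of 35 mice aged 7 to 10 weeks on a C57BL/6 background. All mice carried a transgene that makes the doxycycline-dependent transactivator rtTA in podocytes, together with tetO::Cre and the mT/mG reporter, whose cells turn from red to green once Cre is active. Green cells were sorted by FACS after doxycycline had been given in the drinking water at 2 mg/ml for 7 days. Each mouse had 1 Lmx1b allele from which Cre removes exons 4 to 6, the exons of the homeodomain, and the other allele was wild-type in Lmx1b+/lox mice (the control group, labelled WT), H77L in Lmx1bH77L/lox mice or C118F in Lmx1bC118F/lox mice. Bortezomib, a proteasome inhibitor, was injected every other day at 0.3 μg/g, and DMSO, its solvent, was injected as the control. There were 6 mice in each of the 6 groups of genotype and treatment, except for 5 bortezomib-treated Lmx1bC118F/lox mice, and every mouse was a library of its own.

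LMX1B is a LIM-homeodomain transcription factor that podocytes need to build and keep the filtration barrier, and mutations in its human gene cause nail-patella syndrome. A LIM-homeodomain protein contacts DNA through its homeodomain, while its pair of zinc-binding LIM domains contacts the adaptor LDB1, which dimerises and so brings transcription factors together. SSBP proteins bind LDB proteins and shield them from degradation, RLIM is a ubiquitin ligase that marks LDB1 for the proteasome, and LMO4 consists of little more than LIM domains and competes for LDB1 without binding DNA. TCF3, which encodes the E proteins E12 and E47, is a basic helix-loop-helix factor that can act together with LIM-homeodomain factors.

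The knock-in substitutions lie in the LIM domains, and the reference sequence of both places is shown because the knock-in alleles differ from the wild-type allele there. Lmx1b lies on the minus strand of chromosome 2 of GRCm39, from 33450977 to 33531093. In the annotated transcript of 8 exons that encodes 372 residues, the numbering of the lines is offset by 23 residues, and the codons named by them encode histidine and cysteine. The wild-type coding strand is given 5′ to 3′ with the codon in capitals. The first window is in exon 2 at chr2:33529560-33529634 and the second in exon 3 at chr2:33459231-33459294, where it begins with the first base of the exon.
H77: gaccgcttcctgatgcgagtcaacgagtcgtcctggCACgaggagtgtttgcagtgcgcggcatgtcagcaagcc
C118: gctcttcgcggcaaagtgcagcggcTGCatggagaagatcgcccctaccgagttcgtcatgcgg
Exons 4, 5 and 6 of this transcript are 182, 78 and 67 bases long. Values are in TPM, a unit that corrects reads for the length of each gene and then for the total of the library, so that levels can be compared between genes. For Lmx1b the length behind the values was 4977 bases, of which exons 4 to 6 make up 6.57%, so TPM adds the transcripts of both alleles and cannot separate a knock-in transcript from one that lacks the floxed exons.

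Lmx1b was the most abundant of the 9 transcripts in 32 of the 35 mice, and Rlim was in the other 3. In DMSO-treated Lmx1b+/lox mice the mean level was 69.6 ± 14.7 TPM for Lmx1b and 63.0 ± 8.0 TPM for Rlim (SD, n = 6). Ldb1, Ssbp3, Lmo4 and Ssbp2 followed between 38.0 and 43.7 TPM, then Ssbp4 with 28 ± 7.75 TPM and Tcf3 with 21.4 ± 2.94 TPM (SD, n = 6). Ldb2, the second LDB adaptor gene, was above 1 TPM in 5 of the 35 mice and listed at 0 in 11. Lmo4 was at place 5 of the 9 in DMSO-treated and at place 6 in bortezomib-treated Lmx1b+/lox mice, and at place 8, above Ldb2 alone, in all 4 knock-in groups. Ldb1 was at place 3 in both Lmx1b+/lox groups and at place 4 or 5 in the knock-in groups. Reads recovered from the TPM steps numbered 19168177 per mouse in the median, with a range from 5269307 to 24149853. The number of reads on Lmo4 ranged from 53 to 1010 per mouse and that on Lmx1b from 935 to 4838.

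The first comparison asked whether podocytes that depend on an LMX1B with a damaged LIM domain hold other amounts of these transcripts. Lmo4 was lower in both knock-in lines under both treatments. It lies on chromosome 3 of GRCm39, from 143894143 to 143911774, on the minus strand. Lmo4 values in DMSO-treated mice ran from 31.6 to 55.0 TPM with a median of 39.4 in Lmx1b+/lox mice, from 12.5 to 15.2 with a median of 14 in Lmx1bH77L/lox mice, and from 13.8 to 20.4 with a median of 15.4 in Lmx1bC118F/lox mice. Under bortezomib they ran from 32.6 to 49.5 TPM with a median of 37.7 in Lmx1b+/lox mice and from 13.0 to 18.2 with a median of 17.0 in Lmx1bH77L/lox mice, and the 5 Lmx1bC118F/lox mice had 13.8, 10.2, 13.1, 17.2 and 12.5 TPM. The highest of the 23 knock-in mice, at 20.4 TPM, was below the lowest of the 12 Lmx1b+/lox mice, at 31.6 TPM, so the genotypes did not overlap under either treatment.

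**Figure D1:**
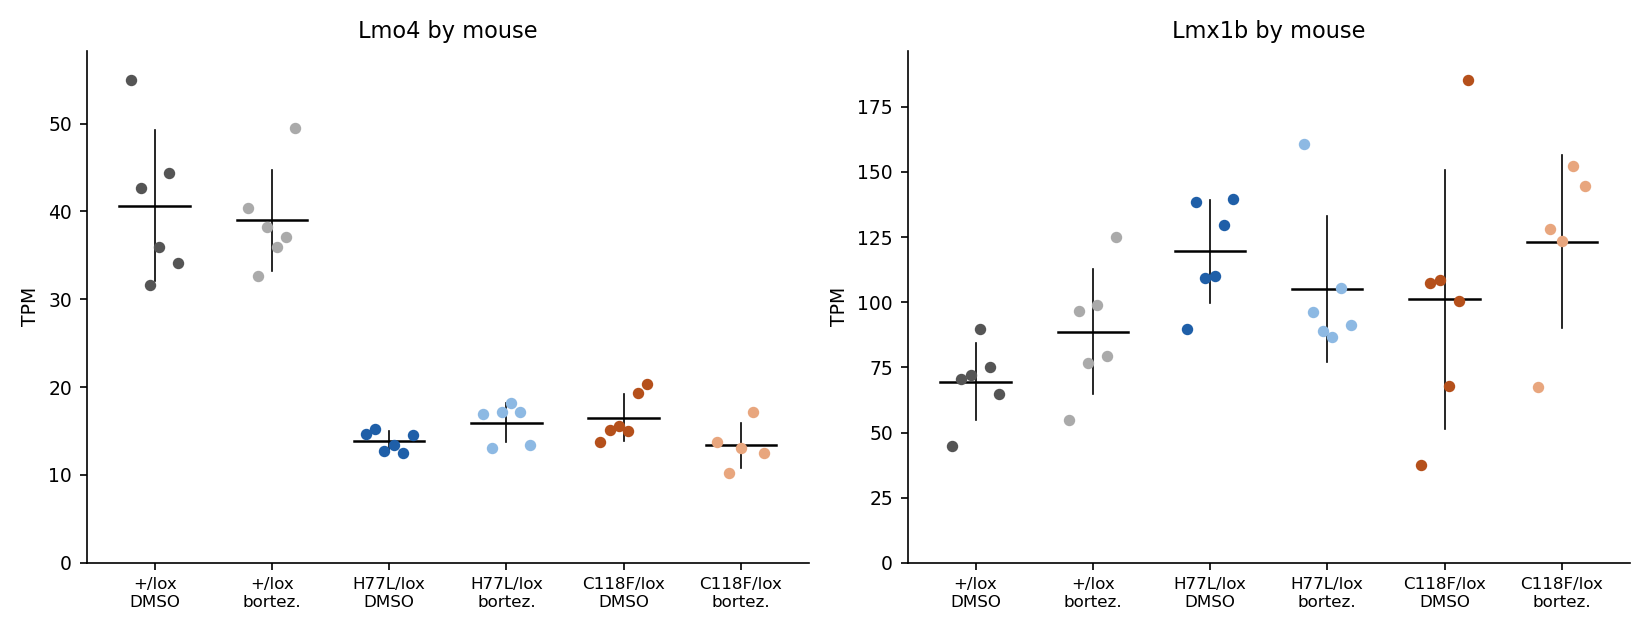
TPM of Lmo4 (left) and Lmx1b (right) in each mouse, by genotype and treatment ("bortez." stands for bortezomib); 1 point is 1 mouse, horizontal bars are means and vertical bars 1 SD. All 23 knock-in mice lie between 10.2 and 20.4 TPM for Lmo4 and all 12 Lmx1b+/lox mice between 31.6 and 55.0. For Lmx1b the groups overlap, except DMSO-treated Lmx1bH77L/lox mice (lowest 89.9 TPM) with DMSO-treated Lmx1b+/lox mice (highest 89.7 TPM).

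Differences were tested with limma on log2(TPM + 1), with p-values adjusted by the Benjamini-Hochberg method over all genes tested in a comparison, and a gene was called at an adjusted p under 0.05. Under DMSO, Lmo4 fell by 1.47 on the log2 scale in Lmx1bH77L/lox mice (SE 0.13, adjusted p = 7.24e-07, limma), which is 2.76-fold, and by 1.24 in Lmx1bC118F/lox mice (SE 0.15, adjusted p = 2.68e-05), which is 2.36-fold. Under bortezomib it fell by 1.24 in Lmx1bH77L/lox mice (SE 0.12, adjusted p = 1.58e-06, limma) and by 1.48 in Lmx1bC118F/lox mice (SE 0.14, adjusted p = 3.19e-06). Ranked by the size of the fall, it was the gene at place 167 of 10964 tested in Lmx1bH77L/lox mice under DMSO and at place 268 of 10899 in Lmx1bC118F/lox mice. The fall was called in every alternative fit and without any single mouse, with log2 fold changes from -1.72 to -1.15. The bortezomib-treated Lmx1bC118F/lox mouse with the fewest reads, which had 53 reads on Lmo4, gave the lowest value, and without it the fall in that comparison was 1.40 on the log2 scale (SE 0.14). In bulk samples, fewer cells of a type and less RNA per cell cannot be told apart.

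The share of genes called was large in these comparisons, and the count of members called has to be read against it. In DMSO-treated Lmx1bH77L/lox mice 1 of the 8 members tested was called higher and 2 lower, while 22.4% of all 10964 genes tested were called higher and 22.4% lower. In DMSO-treated Lmx1bC118F/lox mice 2 of 8 were called lower and 0 higher, against 16.6% and 13.7% of all genes. Under bortezomib 2 of 8 were lower in Lmx1bH77L/lox mice, against 11% of all genes, and 1 of 8 was lower in Lmx1bC118F/lox mice, against 12.4%. None of the 8 was called higher under bortezomib, against 12.5% and 15.1% of all genes. Counts this small do not set the members apart from other genes. By the second threshold, an adjusted p under 0.001 with an absolute log2 fold change above 2, 0 of the 8 were called in any of the 4 comparisons, against 2.17% and 2.27% of all genes under DMSO and 1.2% and 1.93% under bortezomib, in Lmx1bH77L/lox and Lmx1bC118F/lox mice. Their median log2 fold change was -0.19 and -0.10 under DMSO and -0.16 and -0.12 under bortezomib, in Lmx1bH77L/lox and Lmx1bC118F/lox mice, beside -0.01 and -0.06 and then -0.01 and 0.00 over all genes tested. Among all genes, 10.1%, 7.18%, 5.30% and 6.74% were lower with no overlap between groups in the 4 comparisons, in the order Lmx1bH77L/lox and Lmx1bC118F/lox under DMSO and then under bortezomib, and Lmo4 was among them each time.

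**Figure D2:**
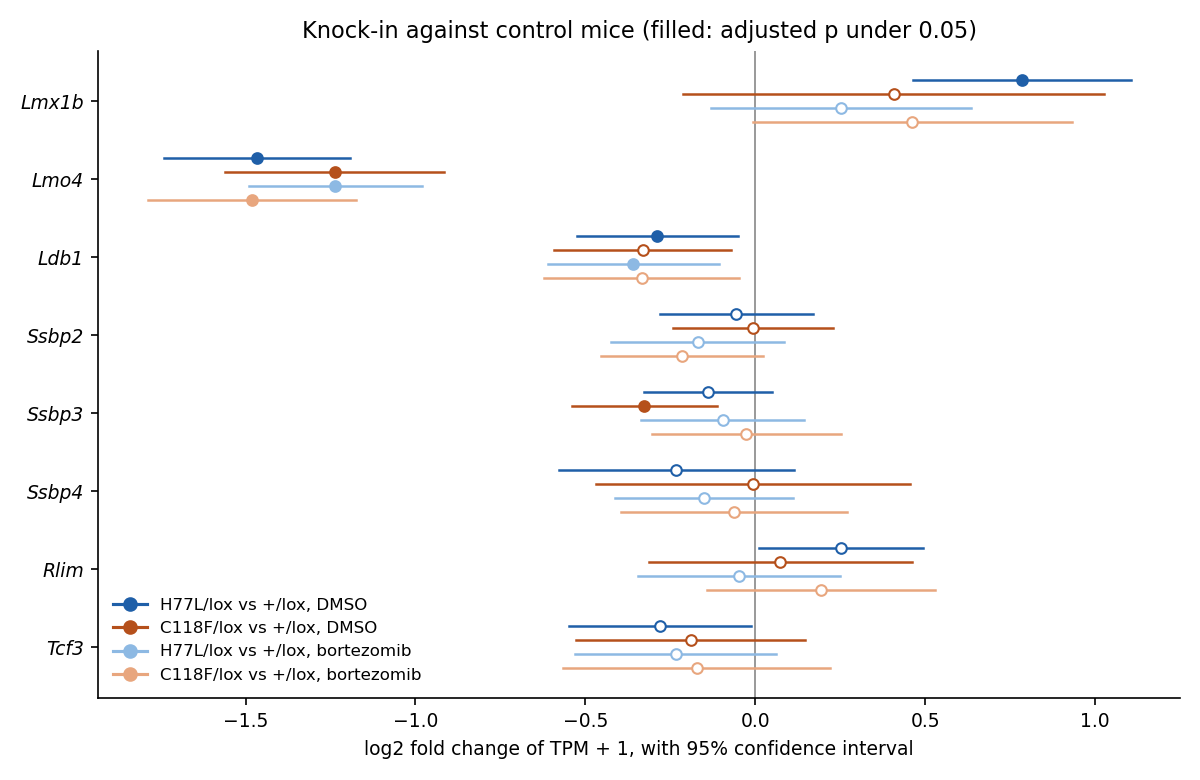
Log2 fold change of TPM + 1 with its 95% confidence interval for the 8 members tested, in each knock-in line against Lmx1b+/lox mice of the same treatment; filled points have an adjusted p under 0.05. The 4 Lmo4 values lie between -1.48 and -1.24 and stand apart from those of the other members, none of which is below -0.36.

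Lmx1b itself was not lower in any knock-in group. Its lowest, median and highest values under DMSO were 44.8, 71.5 and 89.7 TPM in Lmx1b+/lox mice, 89.9, 120 and 139 in Lmx1bH77L/lox mice and 37.4, 104 and 185 in Lmx1bC118F/lox mice. Every DMSO-treated Lmx1bH77L/lox mouse was thus above every DMSO-treated Lmx1b+/lox mouse, by a margin of less than 1 TPM between the nearest mice, whereas Lmx1bC118F/lox mice lay on both sides of the Lmx1b+/lox range. Under bortezomib the corresponding values were 54.8, 88.1 and 125 TPM in Lmx1b+/lox mice and 86.7, 93.8 and 161 in Lmx1bH77L/lox mice, and the 5 Lmx1bC118F/lox mice had 67.5, 128, 123, 152 and 145 TPM. These groups overlapped. Lmx1b rose in DMSO-treated Lmx1bH77L/lox mice by 0.78 on the log2 scale (SE 0.15, adjusted p = 7.91e-04, limma), and 11% of all genes tested were higher there with no overlap between groups. This call was kept in 8 of the 9 alternative fits and without each mouse in turn. Xist, the transcript of the inactive X chromosome, was detected in every mouse and was lower in the same group by 0.77 on the log2 scale (adjusted p = 5.99e-03, limma). With its level as a covariate, the 1 fit that lost the call, the Lmx1b difference was 0.57 with an adjusted p = 0.0781 in limma. Since Xist itself differed between these groups, that fit cannot separate its level from genotype. The other 3 log2 fold changes were not called: 0.41 in DMSO-treated Lmx1bC118F/lox mice (95% confidence interval -0.21 to 1.03), 0.25 in bortezomib-treated Lmx1bH77L/lox mice (-0.13 to 0.63) and 0.46 in bortezomib-treated Lmx1bC118F/lox mice (-0.01 to 0.93). The first and the last of these went to -0.17 with the Xist covariate and to -0.01 with a covariate for the number given to each mouse, so their direction is not settled.

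The call of Lmx1b in the Lmx1bC118F/lox line depended on single mice and, under bortezomib, also on the fit. With every mouse kept, 1 of the 9 alternative fits called it higher in bortezomib-treated Lmx1bC118F/lox mice. The log2 fold change was 0.54 there (adjusted p = 0.0333, limma). Without DMSO-treated Lmx1bC118F/lox mouse 1, which had the lowest Lmx1b level of all 35 mice, the log2 fold change was 0.66 with an adjusted p = 0.0328 in limma. Without bortezomib-treated Lmx1bC118F/lox mouse 1, it was 0.66 with an adjusted p = 0.0160. The first of these mice also had the highest sums of the endothelial list (181 TPM) and of the mesangial and smooth muscle list (3200 TPM) of all mice, and the part of these in its Lmx1b level was not tested. By mean level the 6 groups stood in the order 69.6 TPM (Lmx1b+/lox, DMSO), 88.6 (Lmx1b+/lox, bortezomib), 101 (Lmx1bC118F/lox, DMSO), 105 (Lmx1bH77L/lox, bortezomib), 120 (Lmx1bH77L/lox, DMSO) and 123 (Lmx1bC118F/lox, bortezomib), and neighbours in this order overlapped in every case.

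Because TPM is a value per length, the levels of the members can be set against each other within a mouse. The ratio of Lmx1b to Lmo4 TPM was 1.81 ± 0.588 in DMSO-treated and 2.29 ± 0.584 in bortezomib-treated Lmx1b+/lox mice (SD, n = 6 each), with 2.96 as the highest of the 12 values. It was 8.66 ± 1.47 in DMSO-treated and 6.64 ± 1.70 in bortezomib-treated Lmx1bH77L/lox mice (SD, n = 6 each). In Lmx1bC118F/lox mice it was 5.93 ± 2.25 under DMSO (SD, n = 6) and 9.45 ± 2.95 under bortezomib (SD, n = 5). The lowest knock-in value was 2.71, so this ratio overlapped with the Lmx1b+/lox mice, through DMSO-treated Lmx1bC118F/lox mouse 1. The ratio of Lmo4 to Ldb1, which sets the competitor against the adaptor, was between 0.709 and 1.45 in all Lmx1b+/lox mice and between 0.251 and 0.628 in all knock-in mice, without overlap. These ratios restate the differences of the single genes and were not tested.

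**Figure D3:**
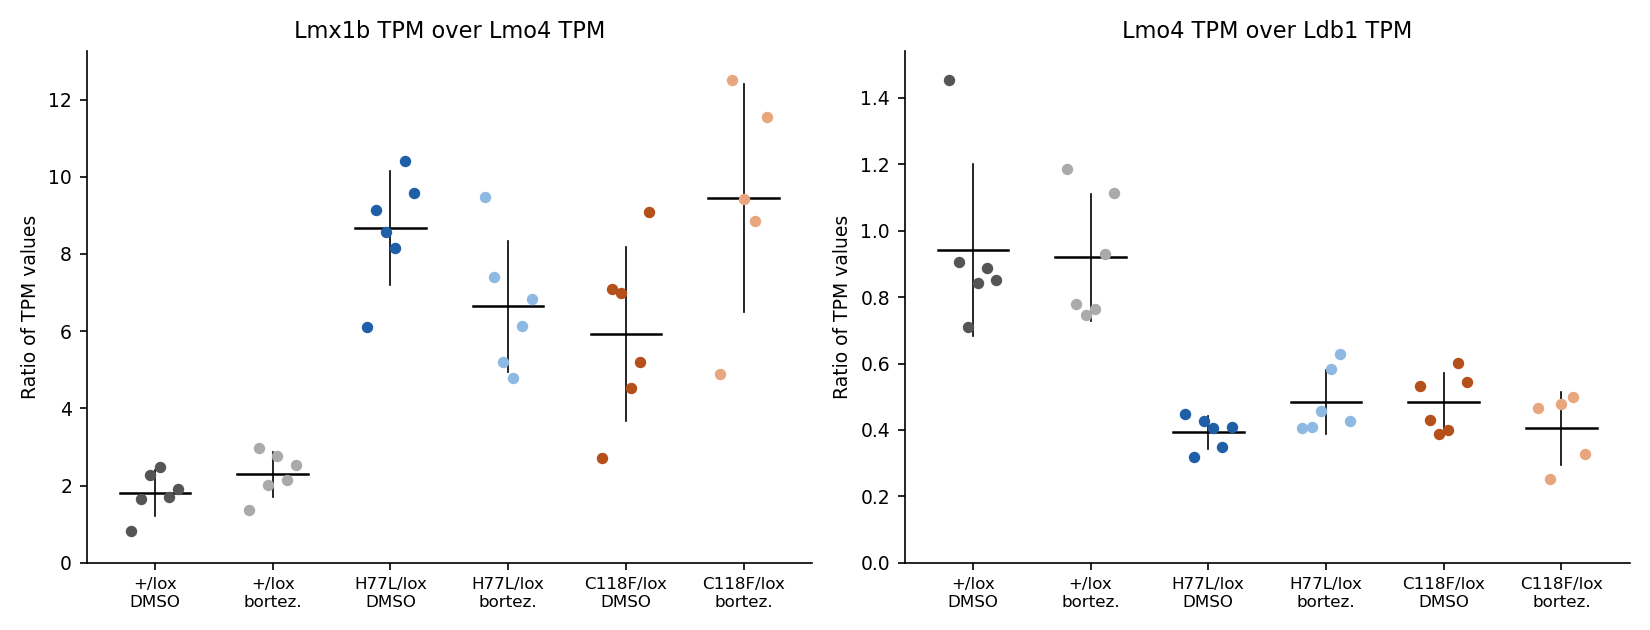
Ratio of the TPM values of Lmx1b to Lmo4 (left) and of Lmo4 to Ldb1 (right) in each mouse, by genotype and treatment; 1 point is 1 mouse, horizontal bars are means and vertical bars 1 SD. On the right, no knock-in mouse is above 0.628 and no Lmx1b+/lox mouse below 0.709.

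Among the adaptor and its stabilisers, Ldb1 was lower by a small amount and the SSBP genes differed little. Ldb1 (chromosome 19 of GRCm39, 46019964 to 46033981) had a mean of 43.7 ± 4.48 TPM in DMSO-treated and 43.1 ± 5.97 TPM in bortezomib-treated Lmx1b+/lox mice (SD, n = 6 each). In the knock-in groups the means lay between 33.4 and 35.8 TPM, with single mice from 25.8 to 47.5 TPM, so the groups overlapped. Ldb1 was called lower in Lmx1bH77L/lox mice under DMSO, where it fell by 0.29 on the log2 scale (SE 0.11, adjusted p = 0.0467, limma), and under bortezomib, where it fell by 0.36 (SE 0.12, adjusted p = 0.0372). In Lmx1bC118F/lox mice the log2 fold change was -0.33 under DMSO (SE 0.12, adjusted p = 0.0518, limma) and -0.33 under bortezomib (SE 0.13, adjusted p = 0.0780), neither of which passed. All 4 values stand close to the threshold and crossed it when the settings changed or when single mice were left out. In DMSO-treated Lmx1bH77L/lox mice, where 7 of 9 alternative fits lost the call, the value was -0.13 when the number of each mouse entered the fit (adjusted p = 0.493, limma). Ldb1 shares 177 exonic bases with Pprc1 on the opposite strand and Ssbp2 shares 2377 with a long noncoding RNA, and whether reads were counted by strand is not given in the sources used here, so reads of these stretches cannot be assigned to 1 gene.

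Ssbp3 was called lower in 1 of the 4 knock-in groups. Its values in DMSO-treated mice ran from 36.4 to 45.0 TPM in Lmx1b+/lox mice and from 28.5 to 34.0 TPM in Lmx1bC118F/lox mice, without overlap. It fell by 0.33 on the log2 scale there (SE 0.10, adjusted p = 0.0230, limma), and the call was lost under median-of-ratios scaling (adjusted p = 0.0583), with the Xist covariate (adjusted p = 0.0858) and without any of 3 single mice. Under bortezomib the same line had a log2 fold change of -0.03 (95% confidence interval -0.31 to 0.25), and the bortezomib change of Lmx1bC118F/lox mice minus that of Lmx1b+/lox mice was 0.30 on the log2 scale (SE 0.15, adjusted p = 0.993, limma), so a difference between treatments was not shown. Ssbp2 and Ssbp4 were not called in any comparison. Their log2 fold changes against Lmx1b+/lox mice lay between -0.23 and -0.01, and the summed level of the 3 SSBP genes was 107 ± 13.3 TPM in DMSO-treated Lmx1b+/lox mice, 96.9 ± 9.50 in Lmx1bH77L/lox mice and 98.4 ± 11.6 in Lmx1bC118F/lox mice (SD, n = 6 each).

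Rlim, the ubiquitin ligase of this set and a gene of the X chromosome (103000769 to 103024932 in GRCm39), was not called in any comparison. Its largest log2 fold change against Lmx1b+/lox mice was 0.25 in DMSO-treated Lmx1bH77L/lox mice (95% confidence interval 0.01 to 0.49, adjusted p = 0.0842, limma), where the mean was 75.6 ± 13.1 TPM beside 63.0 ± 8.0 TPM (SD, n = 6 each). Tcf3 had log2 fold changes from -0.28 to -0.17 in the 4 genotype comparisons, with the lowest adjusted p = 0.0805 in limma in DMSO-treated Lmx1bH77L/lox mice. A change of the size seen for Lmo4 was outside the 95% confidence interval of Rlim, Tcf3, Ssbp2 and Ssbp4 in each comparison.

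**Figure D4:**
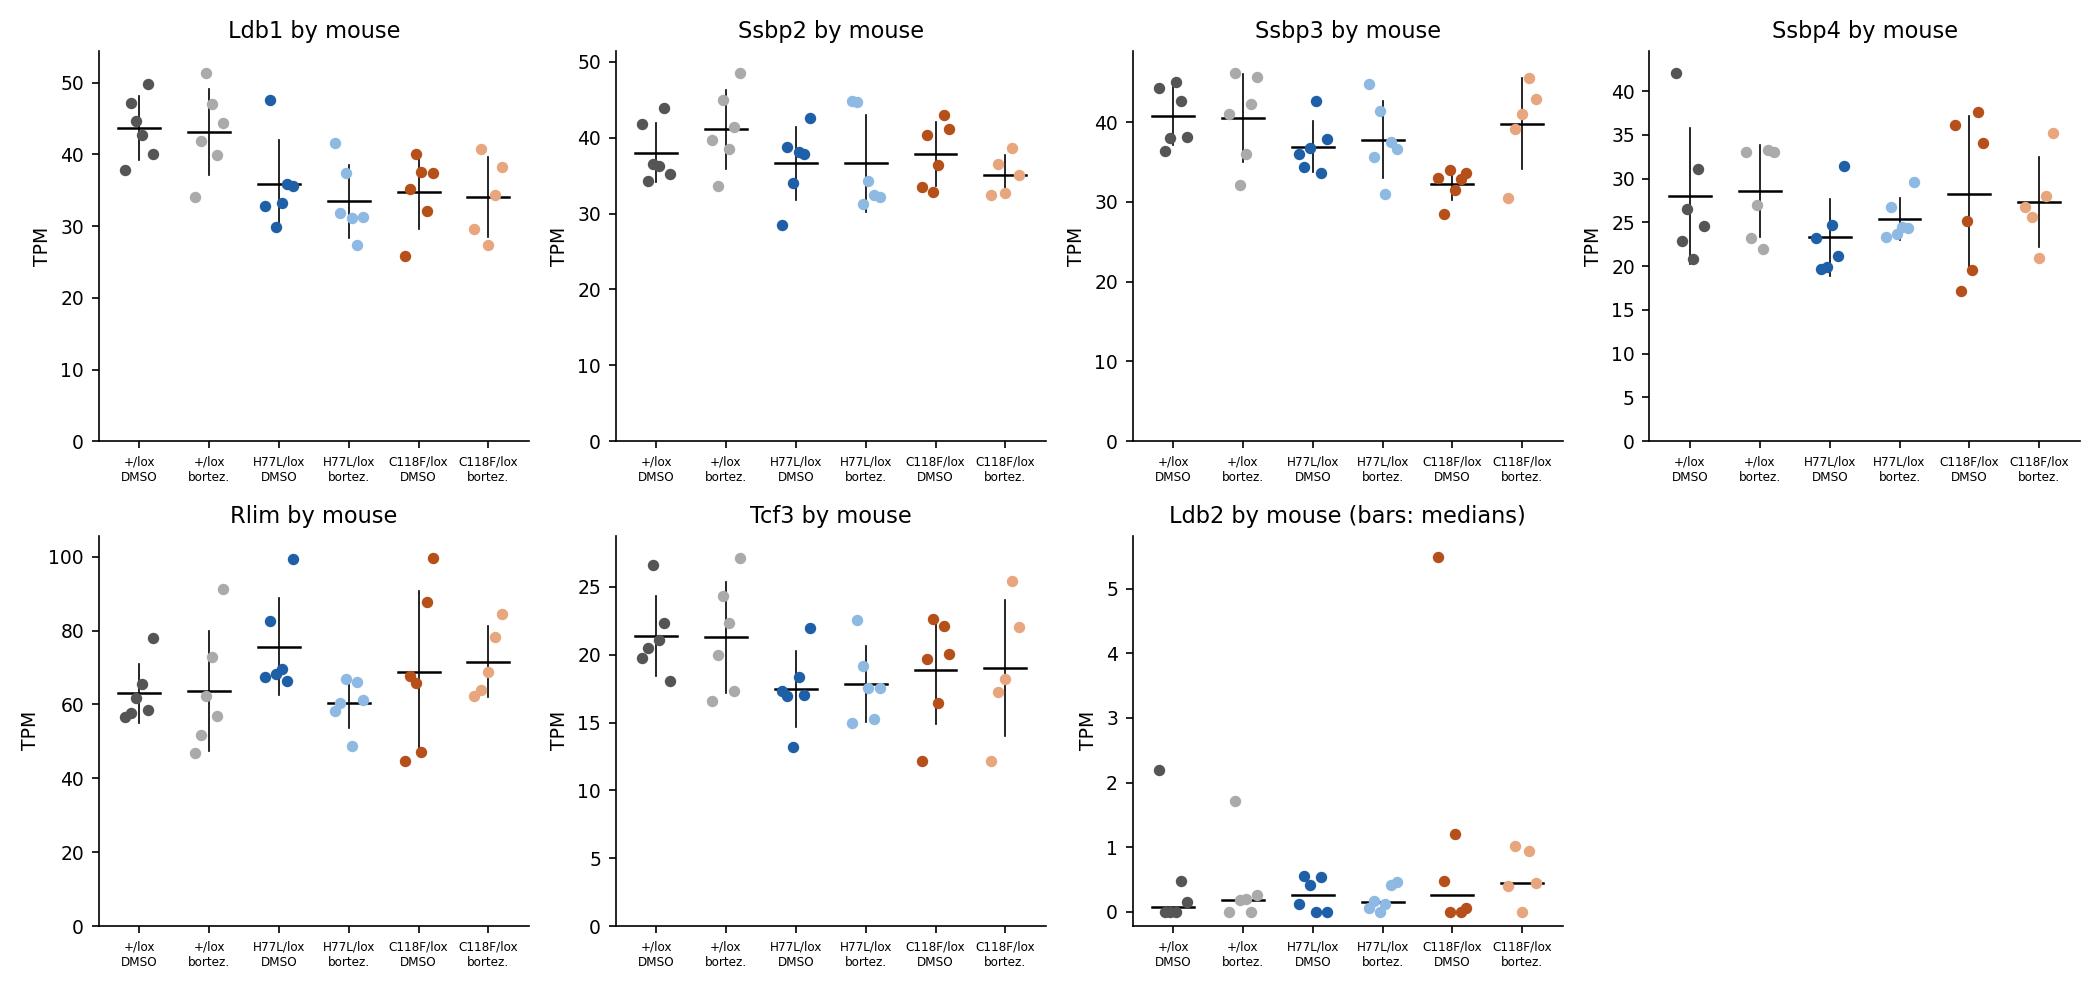
TPM of the other 7 members in each mouse, by genotype and treatment ("bortez." stands for bortezomib); 1 point is 1 mouse, horizontal bars are means with vertical bars of 1 SD, except for Ldb2, where they are medians. Ldb1 means are 43.1 and 43.7 TPM in Lmx1b+/lox mice and 33.4 to 35.8 TPM in the knock-in groups, and a single Ldb2 value reaches 5.49 TPM.

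Ldb2 did not pass the filter of more than 1 TPM in every mouse of a group and was not tested. Its highest value, 5.49 TPM, belonged to DMSO-treated Lmx1bC118F/lox mouse 1, and the next highest were 2.19 TPM in a DMSO-treated and 1.71 TPM in a bortezomib-treated Lmx1b+/lox mouse. The first of these mice had the highest sum of the 9 endothelial markers among the 35 mice, 181 TPM, and the second the next highest, 75.1 TPM, while the median mouse had 23.9 TPM. Across mice, deviations of Ldb2 from the group means went with those of the endothelial sum (Pearson r = 0.80 over 35 mice, and 0.59 without the 2 mice just named, the first 2 by endothelial sum). Of the endothelial list, Ehd3 was the most abundant with a median of 17.4 TPM and the one gene above 1 TPM in every mouse. The part of endothelial RNA in Ldb2 was not tested.

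**Figure D5:**
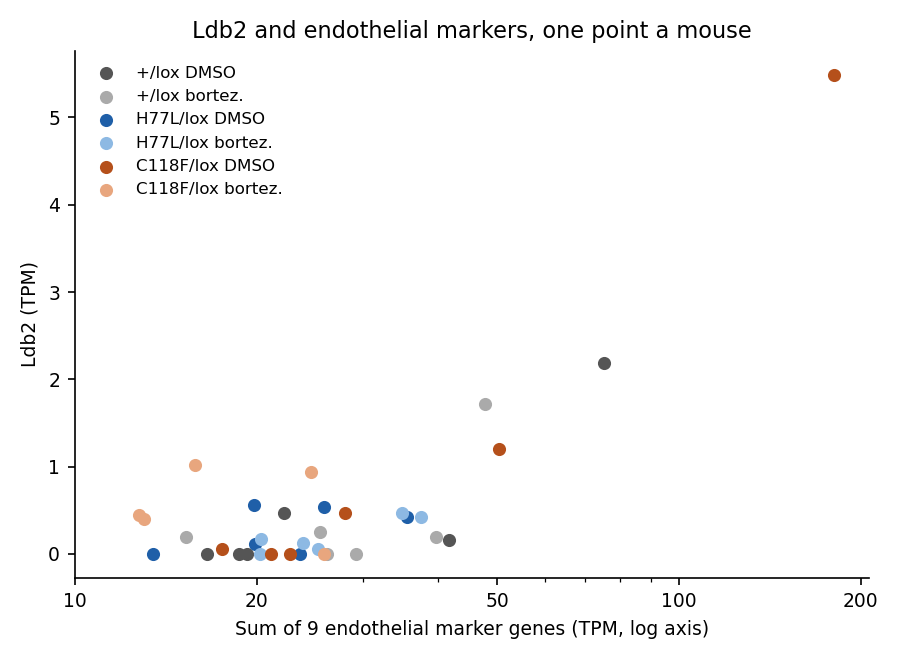
Ldb2 TPM against the summed TPM of 9 endothelial marker genes on a log axis; 1 point is 1 mouse, coloured by genotype and treatment. The mouse at 5.49 TPM of Ldb2 also has the highest endothelial sum, 181 TPM.

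Transcripts of the podocyte markers were present in the sorted cells, and their level differed between genotypes together with that of Lmo4. All 12 podocyte markers were above 1 TPM in every mouse. In each genotype comparison 9 of the 12 were called lower, and in DMSO-treated Lmx1bH77L/lox mice 1 of them, Cd2ap, was called higher. The summed level had a median of 29470 TPM in DMSO-treated Lmx1b+/lox mice, 10276 TPM in Lmx1bH77L/lox mice and 8500 TPM in Lmx1bC118F/lox mice. The sum of the mesangial and smooth muscle list was higher in knock-in mice, with medians of 60.3, 740 and 822 TPM in the same order, of which Des was the most abundant gene and was called higher with Pdgfrb in all 4 comparisons. Of the parietal epithelial list, Cldn1 was higher in all 4 comparisons and Pax8 in both under DMSO. The tubule list had summed levels with medians of 73.9, 16.0 and 24.1 TPM in the same order, with single mice up to 1619 TPM, but the gene of it that was called, Cubn, was higher, by 1.65 on the log2 scale in DMSO-treated Lmx1bH77L/lox mice and by 1.69 and 2.32 in bortezomib-treated Lmx1bH77L/lox and Lmx1bC118F/lox mice. Among leukocyte markers, the pan-leukocyte gene Ptprc had a median of 0, as had Adgre1, C1qa, Cd3e and Cd79a. Cd74 was the most abundant of the 8 with a median of 4.2 TPM, and the sum reached 401 TPM in DMSO-treated Lmx1b+/lox mouse 1. Lyz2 was lower in DMSO-treated Lmx1bC118F/lox mice by 3.0 on the log2 scale (adjusted p = 0.0361, limma). Cd68 was higher in bortezomib-treated ones by 1.82, but it passed the filter of 1 TPM through that group alone. Its value is therefore given as a description. No gene of the tubule or leukocyte list was above 1 TPM in every mouse. The 5 erythroid genes had medians of 0. The part of other cells in the Lmo4 difference was not tested.

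The genes that neighbour this set in function were taken from lists written by name. Of 14 other LIM-homeodomain and LIM-only genes none passed the filter, and 12 of them, among them Lhx1, Lhx2, Isl1, Lmo1 and Lmo3, had a median of 0. Lmx1a, the closest relative of Lmx1b, had a median of 0.730 TPM, and no gene of the list was above 1 TPM in every mouse, as Lmx1b and Lmo4 were. Of the basic helix-loop-helix partners and Id inhibitors, 6 of 9 genes were tested in each genotype comparison. Tcf21, a podocyte transcription factor, fell in all 4 comparisons, by 0.84 and 0.63 on the log2 scale in Lmx1bH77L/lox and Lmx1bC118F/lox mice under DMSO and by 0.59 and 0.68 under bortezomib (adjusted p from 2.57e-03 to 0.0167, limma). Id1 and Id3, whose products keep E proteins such as TCF3 from DNA, were lower in both knock-in lines than in Lmx1b+/lox mice when all had received bortezomib. Id1 was lower by 1.42 in Lmx1bH77L/lox mice (SE 0.37, adjusted p = 0.0103, limma) and by 1.81 in Lmx1bC118F/lox mice (SE 0.30, adjusted p = 3.94e-04), and Id3 by 1.55 and 1.38. Id2 was lower as well in bortezomib-treated Lmx1bC118F/lox mice than in Lmx1b+/lox mice of that treatment, by 1.77 (SE 0.60, adjusted p = 0.0395, limma). Under DMSO the Id1 log2 fold changes were -0.98 and -0.65 and those of Id3 -1.20 and -0.23, none of which was called. No gene of this list was called for bortezomib against DMSO within a genotype or in an interaction test, so a difference between treatments was not shown. In DMSO-treated Lmx1bH77L/lox mice the E protein gene Tcf12 rose by 0.50 and its relative Tcf4 fell by 0.35 on the log2 scale.

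Of 7 genes whose products join the LDB-SSBP complex, 6 were tested, and Bcl9l, which encodes an adaptor of β-catenin, was the one that rose. Its mean level was 5.42 ± 2.07 TPM in DMSO-treated Lmx1b+/lox mice, 11.6 ± 1.70 in Lmx1bH77L/lox mice and 10.2 ± 3.72 in Lmx1bC118F/lox mice (SD, n = 6 each). Bcl9l rose by 1.03 (SE 0.20) and 0.80 (SE 0.27) on the log2 scale under DMSO, and by 1.22 (SE 0.16) and 1.37 (SE 0.19) under bortezomib, with adjusted p-values from 3.12e-05 to 0.0346 in limma. Pygo2, which encodes the partner of BCL9 proteins that reads histone methylation, was lower in 3 of the 4 comparisons, by 0.37 and 0.45 under DMSO and by 0.35 in bortezomib-treated Lmx1bH77L/lox mice. The corepressor gene Cbfa2t3 was lower in the same 3, by 0.35, 0.55 and 0.66, and Cbfa2t2 in DMSO-treated Lmx1bC118F/lox mice, by 0.50. Among 3 substrates of RLIM, Smurf2 was lower in DMSO-treated Lmx1bH77L/lox mice, by 0.44 on the log2 scale (SE 0.12, adjusted p = 7.76e-03, limma). Its log2 fold change was also -0.44 in DMSO-treated Lmx1bC118F/lox mice (SE 0.16, adjusted p = 0.0537, limma), which was not called. Of 6 genes that other work ties to LMX1B in podocytes, Arl4c and Abra were higher in all 4 comparisons, and 1 of the 6 was called lower in each of them. Col4a3 and Col4a4, which encode collagen chains of the glomerular basement membrane, were not called in any.

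No member was called under bortezomib against DMSO within a genotype. Across all genes, 0 of 10659 were called in Lmx1b+/lox mice and 0 of 10814 in Lmx1bC118F/lox mice by limma at an adjusted p under 0.05, where 8.66% and 5.86% of genes had an unadjusted p under 0.05. In Lmx1bH77L/lox mice 1.16% of genes were called, and 20% had an unadjusted p under 0.05. For Lmo4 the log2 fold change of bortezomib against DMSO was -0.05 in Lmx1b+/lox mice (95% confidence interval -0.34 to 0.25), 0.18 in Lmx1bH77L/lox mice (-0.05 to 0.42) and -0.29 in Lmx1bC118F/lox mice (-0.64 to 0.05). For Lmx1b the values were 0.33 (-0.06 to 0.72), -0.20 (-0.52 to 0.11) and 0.38 (-0.33 to 1.10) in the same order. In both knock-in lines the upper bound for Lmo4 was below 1.24, the smallest amount by which a knock-in group was lower than its Lmx1b+/lox group. The value of Rlim in Lmx1bH77L/lox mice, -0.31 (95% confidence interval -0.55 to -0.08), had an adjusted p = 0.130 in limma. Among the interaction tests of the members, 2 had an unadjusted p under 0.05 and neither passed adjustment. The bortezomib change of Lmo4 in Lmx1bH77L/lox mice minus that in Lmx1bC118F/lox mice was 0.48 on the log2 scale (SE 0.18, unadjusted p = 0.0143, adjusted p = 0.650, limma), and that of Lmx1b in Lmx1bH77L/lox mice minus that in Lmx1b+/lox mice was -0.53 (SE 0.25, unadjusted p = 0.0428, adjusted p = 0.256). In the 3 interaction tests 0 genes were called by limma, and 18.2% (Lmx1bH77L/lox minus Lmx1b+/lox), 5.0% (Lmx1bC118F/lox minus Lmx1b+/lox) and 7.60% (Lmx1bH77L/lox minus Lmx1bC118F/lox) had an unadjusted p under 0.05. Comparing the lines directly, 0 of 10809 genes were called under DMSO by limma and 0.972% under bortezomib, with 3.85% and 14.4% at an unadjusted p under 0.05, and no member was called in either.

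Lmx1b varied between mice of the same group, most widely from 37.4 to 185 TPM in DMSO-treated Lmx1bC118F/lox mice, and the cofactors were compared with it mouse by mouse after the group means had been removed. Rlim varied most closely with Lmx1b (Pearson r = 0.71, Spearman rho = 0.64, permutation p = 9.00e-05, adjusted p = 7.20e-04 for r and 0.00224 for rho over 8 relations, 35 mice). Tcf3 (r = 0.60, rho = 0.52, adjusted permutation p = 0.00488 and 0.0100), Ldb1 (r = 0.58, rho = 0.56, adjusted permutation p = 0.00316 and 0.00520) and Ssbp2 (r = 0.40, rho = 0.41, adjusted permutation p = 0.0294 and 0.0426) followed. The relation of Ssbp2 was lost under median-of-ratios scaling (r = 0.22, rho = 0.27, adjusted permutation p = 0.272 and 0.253), and so was the rho of Tcf3 (0.40, adjusted permutation p = 0.0850), whose r was then 0.50 (adjusted permutation p = 0.0238). On the log2(TPM + 1) scale, the 2 mice farthest from the median of Lmx1b were DMSO-treated Lmx1bC118F/lox mouse 1 and DMSO-treated Lmx1b+/lox mouse 1, at 37.4 and 44.8 TPM, and without them the r values were 0.65, 0.49, 0.46 and 0.44. The largest deviations from the group means belonged to DMSO-treated Lmx1bC118F/lox mice 1 and 6, at 37.4 and 185 TPM, and without these 2 the r values were 0.57, 0.52, 0.51 and 0.36. Ssbp3, Ssbp4, Lmo4 and Ldb2 had r values of 0.33, -0.17, 0.18 and -0.49 (adjusted permutation p = 0.0674, 0.499, 0.401 and 0.0661) and rho values of 0.36, -0.14, 0.14 and -0.24 (adjusted permutation p = 0.0637, 0.465, 0.465 and 0.281). Their r values were 0.48, 0.083, 0.24 and -0.11 without the first pair of mice and 0.42, -0.17, -0.04 and -0.16 without the second. These relations are not particular to the set, since the median r with Lmx1b was 0.15 over 9633 genes above 1 TPM in every mouse and 6.75% of them had an r as high as that of Rlim, 14.6% as that of Tcf3, 15.5% as that of Ldb1 and 29.8% as that of Ssbp2. The 5 genes whose pattern was most like that of Lmx1b by this measure were Foxj2 (r = 0.91), Dlg5 (0.91), Ptpn14 (0.91), Mtmr3 (0.91) and Dagla (0.90). The deviations of Lmx1b had an r of 0.06 with the number of reads and of -0.51 with the endothelial sum, which was -0.17 without either pair of mice. With the endothelial sum, Ldb1 had an r of -0.52 (-0.36 and -0.39 without the first and the second pair) and Tcf3 of -0.48 (-0.33 and -0.32), and with the tubule sum Rlim had an r of -0.51 (-0.51 and -0.49). The part of other cells in these relations was not tested.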

How the data were processed

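Single-end poly(A) reads were trimmed by the authors (Trim Galore 0.6.7), mapped by STAR to GRCm39 and assigned to genes by featureCounts 1.6.3. The values they deposited are TPM, and the step from counts to TPM is not given in the sources used here. All members, lists and tests were chosen with earlier results of these data known. Symbols were matched through GENCODE vM39, which held 32776 of the 33292 identifiers.

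TPM steps gave whole reads for all 23943 genes with a value above 0 (100% of them, tolerance 1e-09 reads). Genes for which every mouse of 1 or more of the compared groups exceeded 1 TPM were fitted with limma 3.58.1 (R 4.3.3) on log2(TPM + 1), on the mice compared, with an intensity trend. Fold changes and their confidence intervals are on that scale. The intervals are for the difference of group means, with an error taken from the spread between mice, and do not give the range of single mice. Since the mice of a group have separate numbers, each was taken as a replicate. The second threshold was an adjusted p under 0.001 with an absolute log2 fold change above 2. Alternatives were a pseudocount of 0.1, no filter, all 35 mice in one fit, no trend, median-of-ratios scaling, quality weights, the mouse number or Xist as a covariate, each mouse left out, and limma voom on the recovered reads. Voom, and relations without the 2 mice of largest deviation, were added after seeing the data. Relations used 100000 permutations within groups. Named are all members, at most 4 called genes a list and comparison, and the 5 genes most like Lmx1b. The fit was tested on simulated data, and no result of that test is reported here. The values of 1 gene of the lists are not reported here.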

Additional observations from a re-analysis of the deposited data

Results flagged for a closer look

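Of 54 sets of values (9 genes in 6 groups), 5 held a mouse far from the others of its group by Dixon's ratio, and chance flags about 1 set in 20. Lmx1b was 161 TPM in bortezomib-treated Lmx1bH77L/lox mouse 1, beside 106 TPM in the next highest mouse. Ldb1 was 47.5 TPM in DMSO-treated Lmx1bH77L/lox mouse 2, and the other 5 mice of that group had at most 35.9 TPM. Ldb2 was 2.19 TPM in DMSO-treated Lmx1b+/lox mouse 1, 1.71 TPM in bortezomib-treated Lmx1b+/lox mouse 2 and 5.49 TPM in DMSO-treated Lmx1bC118F/lox mouse 1, and these mice had endothelial sums of 75.1, 47.7 and 181 TPM.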

How the results depend on the processing

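Lmo4 kept its direction and its call in all 4 genotype comparisons under the 9 alternative fits and without each mouse in turn, and 0 members were called in the bortezomib, line and interaction comparisons under the same alternatives. In DMSO-treated Lmx1bH77L/lox mice the count of members called was 3, and it was 1 with Xist as a covariate, 4 with quality weights, 3 with the smaller pseudocount and 2 in the other 6 fits. In DMSO-treated Lmx1bC118F/lox mice it was 2, and it was 1 with median-of-ratios scaling, 3 with all mice in one fit or with quality weights and 2 in the other 6 fits. In bortezomib-treated Lmx1bH77L/lox mice it changed from 2 to 1 without a filter or with Xist, and in bortezomib-treated Lmx1bC118F/lox mice from 1 to 2 with all mice in one fit or with voom and to 3 with quality weights; the cause was not tested. With each mouse left out, the count ran from 2 to 3 and from 1 to 3 under DMSO and from 1 to 2 and from 1 to 2 under bortezomib, in Lmx1bH77L/lox and Lmx1bC118F/lox mice. Rlim was called higher without DMSO-treated Lmx1b+/lox mouse 6 (0.31, adjusted p = 0.0365, limma), and Tcf3 lower without DMSO-treated Lmx1bH77L/lox mouse 6 (-0.35, adjusted p = 0.0347, limma), both in DMSO-treated Lmx1bH77L/lox mice.

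Across mice, the Pearson r with Lmx1b was -0.115 for Ldb2, 0.480 for Ssbp3 and 0.0835 for Ssbp4 without the 2 mice farthest from the median of Lmx1b on the log2 scale, and -0.163 for Ldb2 and -0.0436 for Lmo4 without the 2 mice of largest deviation. Median-of-ratios scaling gave 0.218 for Ssbp2 (adjusted permutation p = 0.272) and 0.125 for Ssbp3 (adjusted permutation p = 0.588), and it took the rho of Tcf3 to 0.40 (adjusted permutation p = 0.0850). No paired analysis was possible because the mice carry unique numbers that no group shares. TPM cannot separate the alleles of Lmx1b, sorted cells are a bulk sample, and Ldb2, with a median of 3 reads a mouse, is limited by depth.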
